A study of Mus musculus with 27 samples.

Results

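Collagens are trimers of alpha chains wound into a triple helix, and each chain has its own gene. Fibril-forming chains give tissue its tensile strength, type IV chains form the sheet of basement membranes, type VI chains form beaded microfilaments around cells, and the remaining families decorate fibrils, anchor basement membranes or sit in cell membranes. In the wall of the gut, fibroblasts and smooth muscle cells are the main makers of collagen. The genes described here are the rows of the count table whose Ensembl identifiers map to protein-coding mouse genes named Col, a number, a and a number. There were 44 such genes among 52550 rows, and their numbers were not used to choose them.

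RNA was sequenced from male C57BL/6 mice that were 6 weeks old before 7 days of acclimatisation and then ate the assigned feed for 60 days. The groups were colon on arsenic feed (n = 4), cecum on arsenic feed (n = 5), ileum on arsenic feed (n = 5), colon on control feed (n = 5), cecum on control feed (n = 4) and ileum on control feed (n = 4). The arsenic feed was the standard feed with total arsenic at 30 ug per g, of which sodium arsenite made up 72.7%, sodium DMA 19.0%, sodium arsenate 7.3% and sodium MMA 1.0%, and control mice ate the standard feed without it. The labels name the tissue but no wall layer or position within it, and they do not say whether libraries with equal numbers came from the same mouse, so p-values measure the spread between libraries.

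Depth was even, with 15717600 to 18208518 counts per library. Levels are CPM, counts scaled to a common library size by TMM over the 27 libraries, and a log2 fold change is given ± SE from edgeR's quasi-likelihood test with Benjamini-Hochberg adjustment over all genes tested. A gene is called at an adjusted p under 0.05. The region labels held for most libraries: Fabp6, the ileal bile acid binding protein, reached 218 to 4268 CPM in 7 of the 9 ileum libraries, and Car1, a carbonic anhydrase of the large intestine, was at 1189 CPM or more in each cecum and colon library. Arsenic-fed ileum libraries 14 and 15 held only 6.13 and 1.33 CPM of Fabp6. Their summed levels of 4 ileum markers were 755 and 3640 CPM, and no cecum or colon library passed 433 CPM. Control colon library 1 had no count of Hoxb13, a homeobox gene of the distal colon, which reached 40.1 to 239 CPM in the other 8 colon libraries. Fabp6, Car1 and Hoxb13 were picked after their values were seen. Calls named below that were lost when refitted without ileum libraries 14 and 15 or control colon library 1 are given with that value. Not every call named below was checked in this way, and the arsenic-feed call of Col7a1 in colon against ileum was not.

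The heaviest collagen expression came from the chains of types I, III, IV and VI in every region. Per kilobase of the principal coding transcript, Col3a1, the single chain of type III fibrils, ranked first in all 6 groups, with 57.3 CPM per kb in arsenic-fed colon, 28.7 in arsenic-fed cecum, 27.6 in arsenic-fed ileum, 64.9 in control colon, 27.5 in control cecum and 32.0 in control ileum. Col6a1 and Col1a2 took the next ranks in each group, and Col3a1, Col6a1 and Col1a2 together held 41.3 to 47.4% of all collagen CPM per kb. With Col6a2, Col4a1 and either Col4a2 (ileum) or Col1a1 (cecum and colon), the first 6 genes held 66.0 to 70.3%. The ratio per kb between partner chains was narrow for some pairs and wide for others. Col1a1, which supplies a pair of the chains of type I collagen beside a single Col1a2 chain, was read at 0.446 to 0.804 times Col1a2 over the 27 libraries. The ratio of Col4a1 to Col4a2, the partners of the common basement membrane trimer, was 1.14 to 1.57, and that of Col6a1 to Col6a2 was 1.15 to 1.5. Wider ranges were found for Col4a3 to Col4a4 (0.273 to 1.86), Col4a5 to Col4a6 (1.16 to 4.93) and Col8a1 to Col8a2 (0.11 to 6.20). Col4a1 and Col4a2 are transcribed away from each other from starts 21 bases apart on chromosome 8.

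Summed over the 44 genes, collagen reached a median of 1418 CPM in arsenic-fed colon, 723 CPM in arsenic-fed cecum and 990 CPM in arsenic-fed ileum, against 1692, 655 and 911 CPM in the same regions on control feed. At the other end, 6 genes passed the filter on low counts in no comparison. Col17a1, a transmembrane collagen of hemidesmosomes in stratified epithelium, lay at 0 to 0.697 CPM over the 27 libraries. Col9a1 of cartilage reached at most 0.77 CPM, Col22a1 0.677 CPM, Col26a1 0.432 CPM, Col2a1, the fibril chain of cartilage, 0.221 CPM and Col10a1, the collagen of growth plates, 0.161 CPM. Of the others, 33 were tested in every comparison and 5 (Col4a3, Col6a6, Col19a1, Col24a1 and Col28a1) in some. A gene that passed the filter only through a group where it was high had to differ. Counts below are over tested genes and not over all members, which does not take such genes out of the counts. Col19a1 and Col28a1 are named below where this applies.

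**Figure D1:**
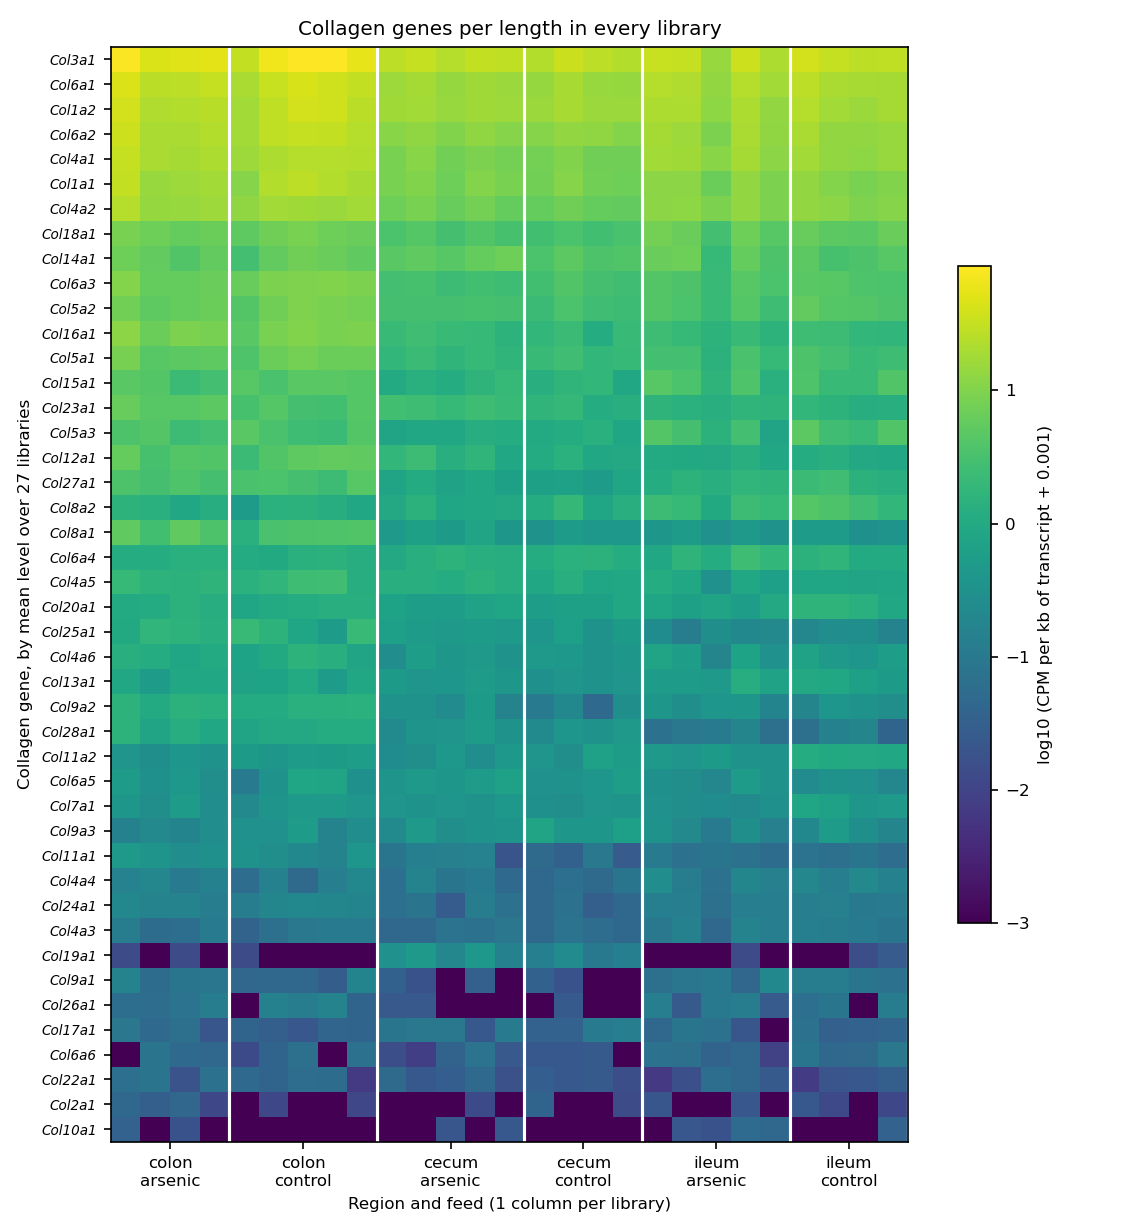
Level of each of the 44 collagen genes (rows, ordered by mean) in each of the 27 libraries (columns, grouped by region and feed), as log10 of CPM per kb of the principal coding transcript after adding 0.001. Col3a1 is at the top in every group, colon columns are brighter than cecum columns for most of the upper genes, and Col19a1 stands out in the cecum alone.

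The colon was the collagen-rich region. Against the cecum, 26 of the 37 collagen genes tested were higher in the colon on arsenic feed and 27 of 37 on control feed, with 1 lower on arsenic feed and none on control feed. Of all genes tested, 38.6% were called on arsenic feed (22.5% higher, 16.2% lower) and 47.2% on control feed (21.9% higher, 25.3% lower). Every colon library lay above every cecum library for 27 of the 37 on arsenic feed, beside 19.5% of all genes, and for 22 of the 37 on control feed, beside 16% of all genes. The median log2 difference of colon minus cecum was 1.17 over the collagen genes and 0.02 over all genes on arsenic feed, and 1.25 against -0.05 on control feed. The feeds share no library in these fits, and among the 36 genes tested on both, 33 had the same sign and 26 were called on both in the same direction. The same counts over all genes are not given, so this agreement is not read as particular to the collagen genes. In bulk tissue, fewer cells of a type and less RNA per cell cannot be told apart.

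Col8a1 (ENSMUSG00000068196, chr16:57624258-57754737, minus strand), a chain of the hexagonal network collagen of vessel walls and smooth muscle, had one of the widest gaps. It stood at 28.1, 14, 27 and 18.7 CPM in the 4 arsenic-fed colons, 2.3, 3.21, 2.53, 3.92 and 2.12 CPM in the 5 arsenic-fed cecums and 2.1, 2.6, 1.58, 2.26 and 1.75 CPM in the 5 arsenic-fed ileums. On control feed it stood at 7.09, 17.1, 18.6, 19.4 and 20.4 CPM in the 5 colons, 1.73, 2.64, 2.18 and 2.16 CPM in the 4 cecums and 2.65, 2.61, 1.5 and 1.82 CPM in the 4 ileums. Every colon library lay above every cecum and ileum library, and the lowest colon value was that of control library 1. The log2 difference of colon minus cecum was 3.04 ± 0.23 on arsenic feed (edgeR adjusted p = 3.78e-07) and 2.93 ± 0.30 on control feed (edgeR adjusted p = 6.08e-06). Col9a2, a FACIT chain of cartilage, had a like difference of 2.20 ± 0.29 on arsenic feed (edgeR adjusted p = 3.19e-05) and 2.96 ± 0.36 on control feed (edgeR adjusted p = 2.36e-05). The usual partner chain of Col8a1, Col8a2, had another pattern: on control feed it was at 2.33, 6.03, 6.51, 5.13 and 3.93 CPM in the colon, 4.93, 8.5, 3.59 and 5.39 CPM in the cecum and 19, 15.4, 11.5 and 8.1 CPM in the ileum. Each ileum library there exceeded each colon library, with a log2 difference of colon minus ileum of -1.50 ± 0.32 (edgeR adjusted p = 0.00132). The share of all genes whose colon and ileum libraries did not overlap is not given. Such separations are therefore only descriptive for Col8a1 and Col8a2 here and for Col12a1 below. Per kb, the ratio of Col8a1 to Col8a2 was 1.99 to 6.20 in arsenic-fed colons, 0.428 to 0.848 in arsenic-fed cecums and 0.166 to 0.31 in arsenic-fed ileums, and 2.41 to 4.40, 0.263 to 0.516 and 0.11 to 0.191 in the same regions on control feed. On arsenic feed the log2 difference of Col8a2 between colon and ileum was -0.62 ± 0.26 (edgeR adjusted p = 0.0497), and that call was lost in 7 of 14 fits that left out a library and without ileum libraries 14 and 15 together (0.171).

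The fibril-associated collagens, which bind the surface of fibrils, split in a similar way. Col12a1, a FACIT chain of tissues under tension, stood at 66.5, 36.1, 47.6 and 44.5 CPM in arsenic-fed colons, 21, 27.9, 14.4, 19.1 and 10.3 CPM in arsenic-fed cecums and 12, 11.7, 10.9, 14.5 and 10.1 CPM in arsenic-fed ileums. On control feed it stood at 27.1, 46.1, 58, 63.4 and 61.3 CPM in colons, 12.4, 16.7, 10.5 and 10.9 CPM in cecums and 12.9, 14.7, 10.9 and 9.87 CPM in ileums, so that the groups of colon libraries overlapped with neither other region on either feed. Its log2 difference of colon minus ileum was 2.11 ± 0.24 on arsenic feed (edgeR adjusted p = 5.18e-06) and 2.08 ± 0.24 on control feed (edgeR adjusted p = 9.11e-06). Col16a1, another FACIT chain, was at 61.8, 35.6, 47.7 and 43.3 CPM in arsenic-fed colons against 11.3, 14, 10.9, 10.4 and 8.0 CPM in arsenic-fed cecums, and at 24.8, 44.8, 51.3, 45.8 and 48.3 CPM in control colons against 9.54, 11.8, 5.99 and 11 CPM in control cecums. The groups were apart on both feeds, with a log2 difference of 2.19 ± 0.19 on arsenic feed (edgeR adjusted p = 1.07e-06) and 2.17 ± 0.24 on control feed (edgeR adjusted p = 1.25e-05). Col14a1, the close relative of Col12a1, was called in no region comparison: its means were 31.6 CPM in arsenic-fed colon, 31.1 CPM in arsenic-fed cecum and 28.4 CPM in arsenic-fed ileum, with 31.6, 22.7 and 23.2 CPM in the same order on control feed. The ratio of Col12a1 to Col14a1 per kb was 0.549 to 1.07 in arsenic-fed colons and 0.675 to 0.973 in control colons, and no library of the cecum or the ileum passed 0.475.

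Col28a1 (ENSMUSG00000068794, chr6:7997808-8192617, minus strand), a chain with von Willebrand A domains known from peripheral nerve, was higher in the colon than in the cecum. It stood at 6.48, 3.23, 5.04 and 3.63 CPM in arsenic-fed colons, 0.957, 1.51, 1.58, 2.14 and 1.37 CPM in arsenic-fed cecums and 0.3, 0.39, 0.475, 0.752 and 0.28 CPM in arsenic-fed ileums, and at 3.23, 4.02, 3.96, 4.91 and 4.82 CPM, 0.96, 1.67, 1.41 and 1.97 CPM and 0.282, 0.623, 0.749 and 0.161 CPM in those regions on control feed. No neighbouring regions overlapped on either feed. The ileum libraries held only 3 to 14 counts of it, and it did not pass the filter within the ileum, so it entered the region comparisons through the cecum and colon libraries. Its tests against the ileum are therefore not read as findings, though it is among the genes counted as called there, and it is the 1 gene called higher in cecum than ileum on control feed.

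The major fibril and basement membrane chains followed the general order. Col3a1 was at 454, 254, 273 and 295 CPM in arsenic-fed colons against 152, 173, 138, 170.0 and 164 CPM in arsenic-fed cecums, and at 167, 373, 472, 480.0 and 314 CPM in control colons against 131, 193, 157 and 130.4 CPM in control cecums. The groups were apart on arsenic feed, and on control feed colon library 1 fell among the cecum libraries. The log2 difference was 1.09 ± 0.23 on arsenic feed (edgeR adjusted p = 0.00203) and 1.25 ± 0.26 on control feed (edgeR adjusted p = 0.00189). Col27a1, a fibrillar chain of cartilage matrix, moved further, by 2.14 ± 0.17 on arsenic feed (edgeR adjusted p = 4.03e-07) and 2.37 ± 0.24 on control feed (edgeR adjusted p = 5.52e-06). Col4a1 was 1.43 ± 0.19 higher in the colon on arsenic feed (log2 scale, edgeR adjusted p = 3.51e-05) and 1.41 ± 0.14 on control feed (edgeR adjusted p = 5.69e-06). Without control colon library 1, the control-feed count was 29 of 37 genes called in colon against cecum and 27 of 37 in colon against ileum. Over the 13 control-feed fits without a library, 39.8 to 53.3% and 47.0 to 57.1% of all genes were called in those comparisons.

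**Figure D2:**
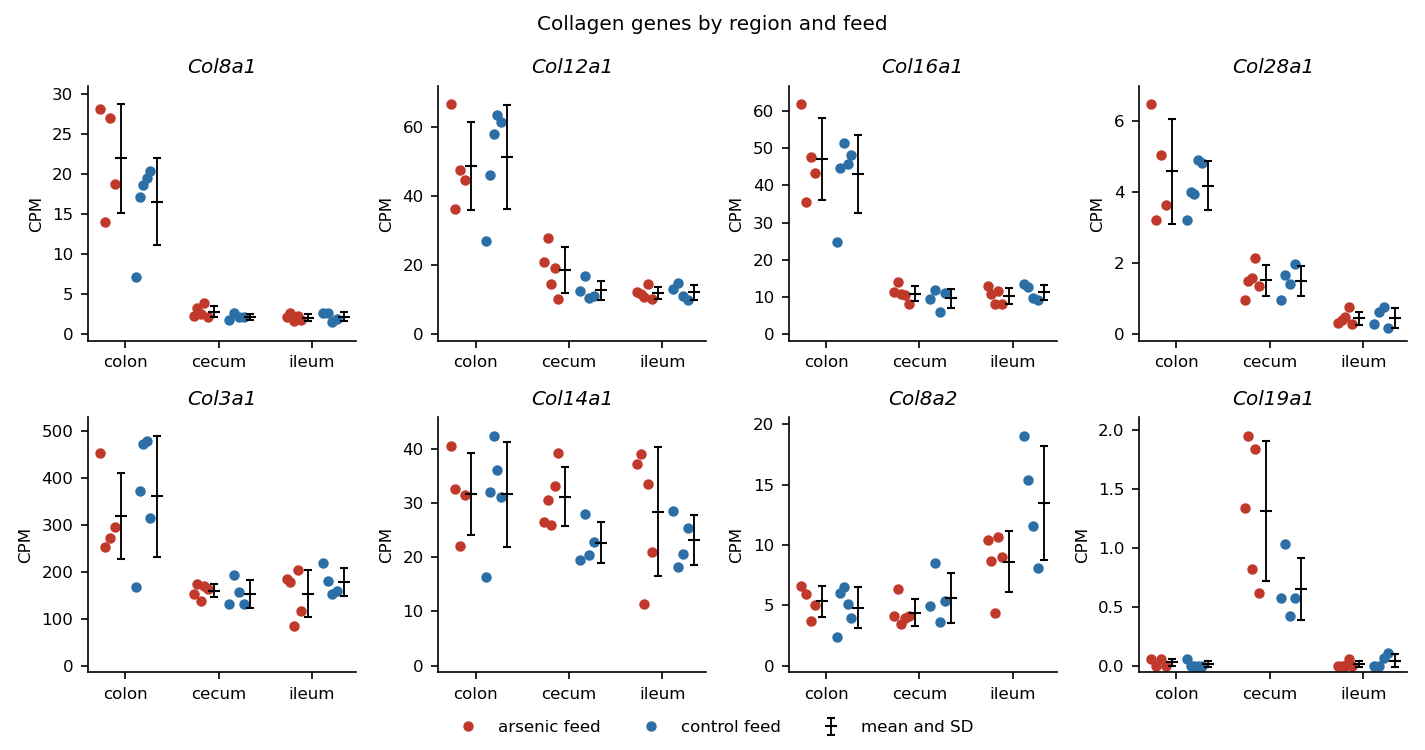
CPM of 8 collagen genes in each library (points) by region and feed, with arsenic-fed libraries in red at the left of control libraries in blue; bars are mean and SD. Col8a1, Col12a1, Col16a1 and Col28a1 are highest in the colon, Col14a1 is level, Col8a2 is highest in the ileum, and Col19a1 lies at 0.423 CPM or more in each cecum library and at 0.107 CPM or less elsewhere.

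Against the ileum, 23 of 37 collagen genes were called higher and 1 lower in the colon on arsenic feed, and 21 higher and 3 lower on control feed, beside 59.1% and 52.2% of all genes called in either direction. The share of all genes called higher was 32.8% on arsenic feed and 27.7% on control feed, and the share called lower was 26.3% and 24.5%. The median log2 difference was 0.78 over the collagen genes and 0.07 over all genes on arsenic feed, and 0.65 and 0.02 on control feed. The 3 chains that were lower in the colon on control feed were Col8a2, Col11a2 and Col7a1. Col7a1, the anchoring fibril that ties the epithelial basement membrane to the stroma, was called in both feeds with opposite signs, at 0.50 ± 0.20 on arsenic feed (edgeR adjusted p = 0.0482) and -0.67 ± 0.24 on control feed (edgeR adjusted p = 0.0318). The control-feed call of Col7a1 was lost without ileum library 1 (edgeR adjusted p = 0.119), ileum library 2 (0.0789) or colon library 2 (0.0521). The arsenic-feed call of Col7a1 lay close to the cutoff of 0.05 and was not checked in this way. The opposite signs of the calls are therefore not shown to be firm.

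In the cecum against the ileum, more collagen genes were called lower than higher. On arsenic feed 6 were higher and 8 lower of 37, beside 52.2% of all genes called (25.0% higher, 27.1% lower), and on control feed 1 was higher and 16 were lower of 37, beside 54.9% of all genes called (28.4% higher, 26.5% lower). The 16 included Col4a3 and Col24a1, which did not pass the filter within the cecum, so their calls are not read as findings. The median log2 difference was -0.27 over the collagen genes and -0.06 over all genes on arsenic feed, and -0.46 and -0.03 on control feed. Upper-quartile scaling moved the median of all genes to -0.19 on control feed, and the collagen median was then -0.63. The basement membrane chain Col4a2 was at 45.9, 57.6, 39.2, 52.1 and 38.2 CPM in arsenic-fed cecums against 77.7, 81.2, 58.3, 89 and 60.2 CPM in arsenic-fed ileums, and at 38.1, 46.4, 37.4 and 36.8 CPM in control cecums against 90.1, 75.7, 60.9 and 71.8 CPM in control ileums. Each cecum library was below each ileum library of its feed, with a log2 difference of -0.66 ± 0.17 on arsenic feed (edgeR adjusted p = 0.00485) and -0.92 ± 0.13 on control feed (edgeR adjusted p = 4.25e-05). The share of all genes whose cecum and ileum libraries did not overlap is not given, so this separation is only descriptive. Col5a3, a minor fibrillar chain that joins type V trimers, differed by -1.37 ± 0.35 on arsenic feed (edgeR adjusted p = 0.00494) and -1.63 ± 0.28 on control feed (edgeR adjusted p = 0.000252). The count on control feed was 14 to 22 and that on arsenic feed 10 to 20 when single libraries were left out. In those fits 49.3 to 59.6% of all genes were called on control feed and 48.1 to 53.4% on arsenic feed.

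Col19a1 (ENSMUSG00000026141, chr1:24261890-24587472, minus strand), a FACIT chain first known from basement membrane zones of muscle, was found almost wholly in the cecum. It stood at 1.34, 1.95, 0.822, 1.84 and 0.615 CPM in arsenic-fed cecums, 0.576, 1.03, 0.423 and 0.571 CPM in control cecums, and no more than 0.107 CPM in any library of another region. The arsenic-fed cecums held 105 counts in all, against 1 count in arsenic-fed ileums and 2 counts in arsenic-fed colons, and the control cecums held 40 counts, against 3 in control ileums and 1 in control colons. The ratio of cecum to ileum was 116 on arsenic feed (exact 95% interval 20.4 to 4631) and 15.3 on control feed (4.87 to 77.2), and that of cecum to colon was 49.9 (13.5 to 418) and 60.3 (10.2 to 2440), with intervals that cover counting error only. It passed the filter only through the cecum libraries, so its test is not read as a finding, though on arsenic feed it is among the genes counted as called in cecum against ileum and in colon against cecum.

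Many genes that serve collagen were also called higher in the colon than in the cecum, where 22.5% of all genes were called higher on arsenic feed and 21.9% on control feed. In colon against cecum, the lysyl oxidases, procollagen proteinases and their helpers were called higher in 9 of 13 on arsenic feed and 11 of 13 on control feed, with none lower. All 6 proteoglycans that bind fibrils were called higher on both feeds, and of 14 other basement membrane genes, laminins and nidogens among them, 12 were higher on arsenic feed and 13 on control feed. Of 21 genes of chain hydroxylation, folding and export, 14 were higher and 2 lower on arsenic feed and 11 higher and 2 lower on control feed. Collagen receptors were called higher in 4 of 8 on arsenic feed and 3 of 8 on control feed. TGF-beta ligands and targets were higher in 7 of 8 and 6 of 8. Degrading enzymes and their inhibitors were higher in 7 and lower in 2 of 11 on each feed.

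Markers of the cell types of the wall moved as well, beside 22.5% of all genes called higher in colon than cecum on arsenic feed and 21.9% on control feed. All 10 smooth muscle markers were called higher in colon than cecum on both feeds, and their summed level was 7017 to 10500 CPM in arsenic-fed colons against 3395 to 5552 CPM in arsenic-fed cecums, and 5896 to 8363 CPM in control colons against 2965 to 4024 CPM in control cecums. Fibroblast markers were called higher in 4 of 10 on arsenic feed and 8 of 10 on control feed, with summed levels of 560 to 958 CPM in arsenic-fed colons against 475 to 591 CPM in arsenic-fed cecums, and 518 to 970 CPM in control colons against 369 to 549 CPM in control cecums. All 8 enteric glia and nerve markers were higher on both feeds, and endothelial and pericyte markers in 6 of 8. Epithelial markers summed to 13316 to 15559 CPM in arsenic-fed colons against 16142 to 18998 CPM in arsenic-fed cecums, and 12998 to 14867 CPM in control colons against 18927 to 21055 CPM in control cecums. No marker of these lists was at 0 in any group, and their part in the collagen differences was not tested. Summed fibroblast markers of the ileum overlapped those of the colon, at 449 to 1521 CPM in arsenic-fed ileums and 828 to 1186 CPM in control ileums. In control colon against control ileum, 5 of 6 adipocyte markers were called lower, beside 24.5% of all genes.

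**Figure D3:**
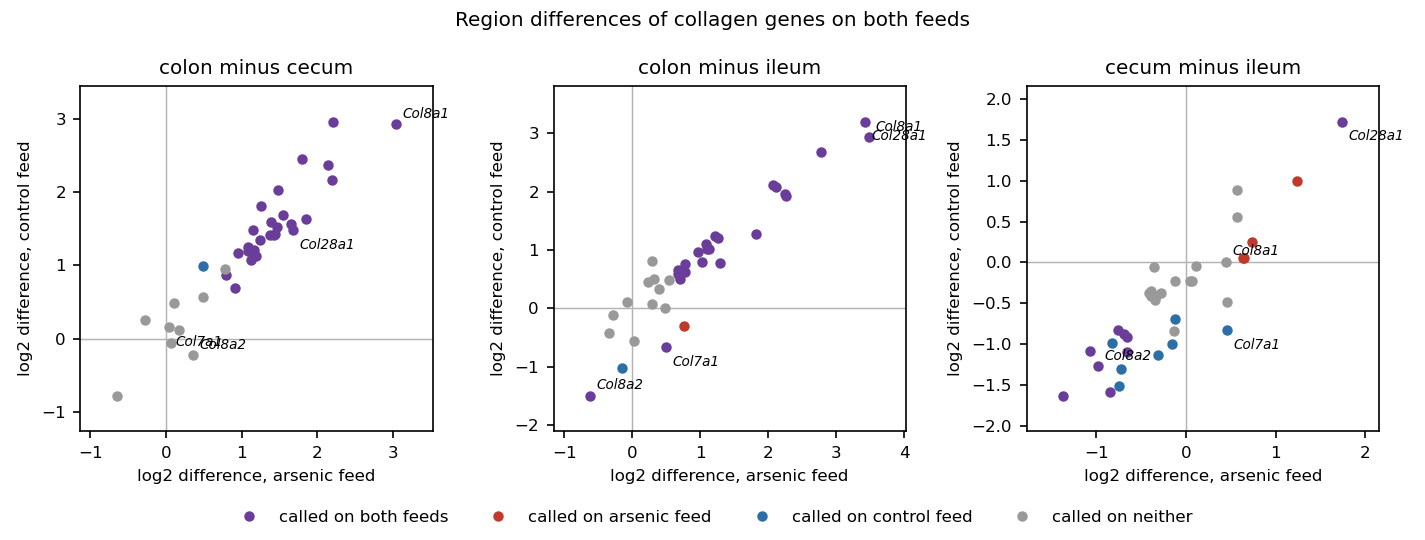
Log2 difference between regions of each collagen gene tested on both feeds, with arsenic feed on the horizontal axis and control feed on the vertical axis; colours show on which feed a gene was called. Most genes lie in the upper right for colon minus cecum, where 26 were called on both feeds, and Col7a1 lies to the right of 0 and below 0 for colon minus ileum.

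In the arsenic-fed ileum most collagen genes were not called and 3 were lower than on control feed. Of 36 tested, 3 were called, all lower, which is 8.33% beside 7.30% of all genes, and 4.02% of all genes were called higher and 3.28% lower. The median log2 change of arsenic over control was -0.11 over the collagen genes and 0.00 over all genes. Col11a2 (ENSMUSG00000024330, chr17:34039437-34066685, plus strand), a minor chain that sets the diameter of fibrils in cartilage, stood at 2.55, 2.01, 2.64, 1.83 and 1.82 CPM in arsenic-fed ileums, against 6.16, 5.44, 5.12 and 4.83 CPM in control ileums. Every arsenic library was below every control library, and the log2 change was -1.34 ± 0.19 (edgeR adjusted p = 0.00619), with a call in each of the 9 fits that left out a library. Col7a1 (ENSMUSG00000025650, chr9:108953586-108984875, plus strand) stood at 2.85, 2.53, 2.27, 1.99 and 2.8 CPM in arsenic-fed ileums, against 7.23, 6.23, 3.74 and 4.29 CPM in control ileums. These groups did not overlap either, which held downward for these 2 collagen genes and for 4.87% of all genes, with a log2 change of -1.15 ± 0.23 (edgeR adjusted p = 0.0191). The call of Col7a1 was lost without control library 1 (0.0595), control library 2 (0.0807) or arsenic libraries 14 and 15 together (0.0591). Col20a1, a FACIT chain, was at 3.95, 3.25, 3.8, 2.96 and 4.83 CPM in arsenic-fed ileums, against 8.02, 7.99, 6.93 and 4.56 CPM in control ileums, and here the highest arsenic library lay above the lowest control library. Its log2 change was -0.91 ± 0.21 (edgeR adjusted p = 0.0306), a call that 6 of the 9 fits without a library lost (edgeR adjusted p up to 0.11) and that was also lost without arsenic libraries 14 and 15 together (0.0621), and it shares 237 exon bases with the overlapping transcript BX649560.1 on the same strand, so its count is uncertain.

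The abundant chains were not called between the feeds in the ileum. Col1a1 changed by -0.036 ± 0.21 on the log2 scale, Col1a2 by -0.13 ± 0.20, Col3a1 by -0.25 ± 0.25, Col4a1 by 0.024 ± 0.18 and Col6a1 by -0.12 ± 0.18, none of them called (edgeR adjusted p 0.586 or more). Col3a1 was at 185, 178, 84.3, 204 and 116 CPM in arsenic-fed ileums, against 219.8, 180.3, 153 and 159 CPM in control ileums, and the groups overlapped. Arsenic library 13 was the lowest of its group for Col1a1, Col1a2, Col3a1, Col4a1 and Col6a1.

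Few genes that serve collagen were called in the arsenic-fed ileum. Among them were alpha subunits of prolyl 4-hydroxylase, which hydroxylates proline so that the helix is stable. P4ha1 averaged 9.25 ± 1.54 CPM in arsenic-fed ileums and 19.7 ± 1.42 CPM in control ileums (SD, n = 5 and 4), a log2 change of -1.12 ± 0.14 (edgeR adjusted p = 0.00415). P4ha2 averaged 3.75 ± 0.871 CPM and 6.9 ± 0.218 CPM in the same groups (log2 change -0.91 ± 0.19, edgeR adjusted p = 0.0224), and lost its call in 5 of 9 fits without a library and without arsenic libraries 14 and 15 together (0.0552). These were 2 of 20 genes tested for hydroxylation, folding and export, a share near the 7.30% of all genes called in the ileum. The collagen-binding integrin chain Itga10 was the only one of 8 receptors called, at 1.35 ± 0.313 CPM in arsenic-fed ileums and 3.15 ± 0.194 CPM in control ileums (log2 change -1.25 ± 0.21, edgeR adjusted p = 0.011). Without control library 2 the adjusted p of Itga10 was 0.053. No gene was called among 12 of crosslinking, 11 of breakdown, 6 proteoglycans, 8 TGF-beta genes and 14 other basement membrane genes. Smooth muscle markers summed to 3910 to 4342 CPM in arsenic-fed ileums against 3827 to 7321 CPM in control ileums, with 0 of 10 called. Of the 10, 8 had an unadjusted p under 0.05. The share of all genes at that level is not given, so the 8 are not read as a result.

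In the cecum, 3 collagen genes were higher on arsenic feed than on control feed. They were 8.57% of the 35 tested, beside 25.2% of all genes called (11.3% higher, 13.9% lower), and 28 of 35 had a positive sign. The median log2 change was 0.21 over the collagen genes and 0.02 over all genes. The collagen genes were measured in the same libraries, so their signs are not independent. Col23a1 (ENSMUSG00000063564, chr11:51289920-51583918, plus strand), a transmembrane collagen that binds integrin at cell contacts, stood at 15.4, 14.1, 11.4, 14.4 and 12.5 CPM in arsenic-fed cecums, against 9.67, 11.2, 6.55 and 6.97 CPM in control cecums. The groups did not overlap, which held upward for this 1 collagen gene and for 7.24% of all genes, with a log2 change of 0.70 ± 0.16 (edgeR adjusted p = 0.00488), and it was called in all 9 fits without a library and with all 27 libraries in 1 fit. Col14a1 was at 26.6, 30.6, 26, 33.1 and 39.3 CPM in arsenic-fed cecums, against 19.5, 27.9, 20.4 and 22.8 CPM in control cecums, where control library 2 lay within the arsenic-fed range. Its log2 change was 0.49 ± 0.13 (edgeR adjusted p = 0.0155), with 0.0519 without control library 1 and 0.322 with all 27 libraries in 1 fit. Col4a5, a basement membrane chain that pairs with Col4a6 in smooth muscle, was at 8.36, 8.61, 7.33, 9.85 and 7.65 CPM in arsenic-fed cecums, against 5.76, 8.24, 5.36 and 5.9 CPM in control cecums, again with control library 2 within the arsenic-fed range. Its log2 change was 0.44 ± 0.15 (edgeR adjusted p = 0.043), and 6 of 9 fits without a library lost the call (edgeR adjusted p up to 0.111). Without arsenic library 15, 7 collagen genes were called, all higher. Over the 9 fits without a library, 19.4 to 27.9% of all genes were called.

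Col19a1 averaged 1.31 ± 0.594 CPM in arsenic-fed cecums and 0.65 ± 0.263 CPM in control cecums (SD, n = 5 and 4), which did not pass the test (log2 change 1.04 ± 0.39, edgeR adjusted p = 0.0607). The abundant chains had log2 changes of 0.14 ± 0.14 for Col1a1, 0.054 ± 0.081 for Col1a2, 0.1 ± 0.11 for Col3a1, 0.17 ± 0.13 for Col4a1, 0.27 ± 0.12 for Col4a2 and 0.075 ± 0.092 for Col6a1, none called.

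**Figure D4:**
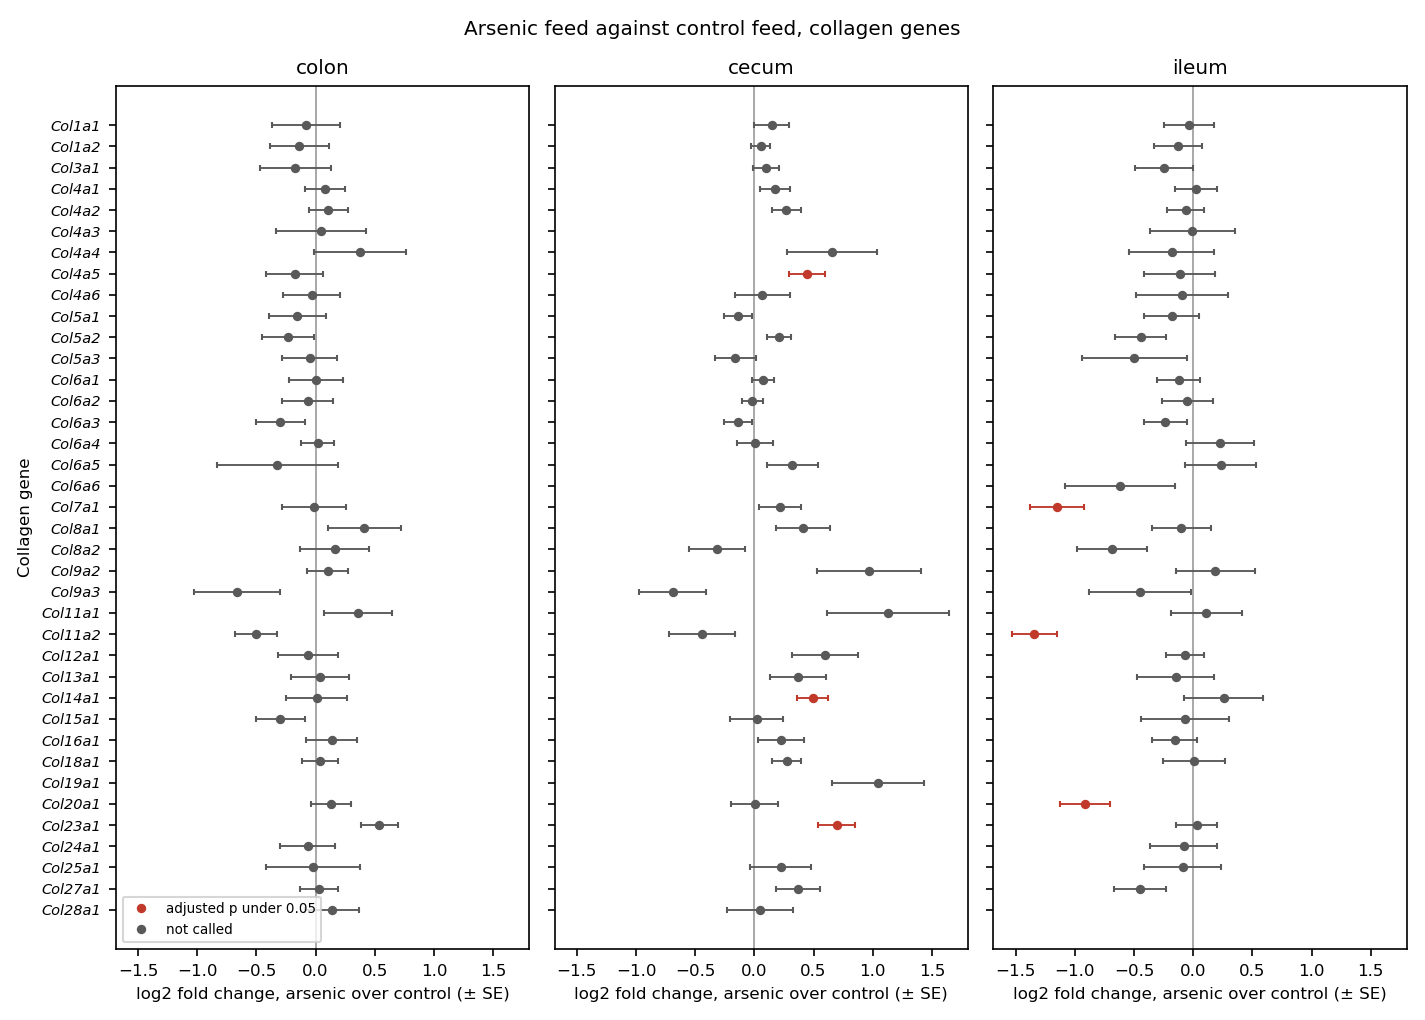
Log2 fold change of arsenic over control feed (± SE) of every collagen gene tested, in the colon, the cecum and the ileum; red marks an adjusted p under 0.05. Col23a1, Col14a1 and Col4a5 lie right of 0 in the cecum, Col11a2, Col7a1 and Col20a1 lie left of 0 in the ileum, and no gene is red in the colon.

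Among genes that serve collagen in the cecum, most calls were lower for synthesis and higher for proteoglycans and processing, beside 11.3% of all genes called higher and 13.9% called lower. Of 20 tested for hydroxylation, folding and export, 6 fell and 1 rose. P4ha1 averaged 21.2 ± 1.66 CPM in arsenic-fed cecums and 39.4 ± 6.67 CPM in control cecums (SD, n = 5 and 4; log2 change -0.85 ± 0.11, edgeR adjusted p = 9.66e-05). Serpinh1, the collagen chaperone HSP47, averaged 53.8 ± 3.18 and 69.3 ± 7.08 CPM in those groups (log2 change -0.33 ± 0.077, edgeR adjusted p = 0.00656). Plod3, a lysyl hydroxylase, averaged 11.7 ± 0.503 and 15.3 ± 1.34 CPM (log2 change -0.34 ± 0.094, edgeR adjusted p = 0.0153). All 3 were called in every fit without a library, but with all 27 libraries in 1 fit Serpinh1 was not (0.214).

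Of 6 proteoglycans that coat fibrils, 4 rose. Ogn averaged 63.1 ± 7.34 CPM in arsenic-fed cecums and 44.9 ± 3.83 CPM in control cecums (log2 change 0.53 ± 0.088, edgeR adjusted p = 0.000716), and Dcn, decorin, averaged 179.6 ± 16.8 and 138 ± 22.4 CPM (log2 change 0.42 ± 0.10, edgeR adjusted p = 0.0123). Bmp1, the proteinase that trims procollagen, rose by 0.54 ± 0.092 (edgeR adjusted p = 0.000792), 1 of 3 genes of processing and crosslinking that rose among 10 tested, with none lower. Among 10 genes of breakdown and its inhibitors 2 rose and 1 fell, led by the inhibitor Timp2 with 0.37 ± 0.08 (edgeR adjusted p = 0.00386), while the collagenase Mmp13 changed by -0.78 ± 0.23 (edgeR adjusted p = 0.0243) and lost its call in 2 of 9 fits without a library. Of 8 TGF-beta genes 3 rose and 1 fell, with Tgfbi at 0.48 ± 0.12 (edgeR adjusted p = 0.00931) and the ligand Tgfb2 at 0.79 ± 0.20 (edgeR adjusted p = 0.0108). Of 8 receptors 2 fell, the epithelial collagen receptor kinase Ddr1 among them (-0.32 ± 0.071, edgeR adjusted p = 0.00443). Of 14 other basement membrane genes 2 rose, a share near the 11.3% of all genes called higher, with the laminin chain Lamb3 among them (0.31 ± 0.073, edgeR adjusted p = 0.00715). With all 27 libraries in 1 fit, P4ha1, Plod3 and Tgfb2 were still called, and Ogn (0.0726), Dcn (0.352), Bmp1 (0.0601), Timp2 (0.218), Tgfbi (0.0885), Ddr1 (0.0535), Lamb3 (0.625) and Mmp13 (0.0892) were not.

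Markers of several cell types differed between the feeds in the cecum, beside 11.3% of all genes called higher and 13.9% called lower. Fibroblast markers rose in 5 of 10, a list that shares Dcn and Lum with the proteoglycans, and summed to 475 to 591 CPM in arsenic-fed cecums against 369 to 549 CPM in control cecums. Smooth muscle markers rose in 4 of 10 (3395 to 5552 CPM in arsenic-fed cecums against 2965 to 4024 CPM in control cecums) and endothelial and pericyte markers in 2 of 8 (256 to 352 CPM against 207 to 273 CPM). Epithelial markers fell in 3 of 8 (16142 to 18998 CPM in arsenic-fed cecums against 18927 to 21055 CPM in control cecums), and large intestine markers fell in 4 of 5. T cell markers rose in 5 of 8 (30.7 to 50.6 CPM in arsenic-fed cecums against 22.7 to 35.9 CPM in control cecums). B cell and follicle markers summed to 10.2 to 210 CPM in arsenic-fed cecums against 2.82 to 43.9 CPM in control cecums. The TMM factors of the cecum libraries did not overlap, at 0.903 to 0.985 for arsenic feed and 0.852 to 0.884 for control feed. None of these markers was at 0 in a group, and their part in the collagen changes was not tested.

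In the colon, 0 of 36 collagen genes tested passed edgeR's test between the feeds, beside 0.649% of all genes called (0.364% higher, 0.285% lower). Unadjusted p was under 0.05 for 2 of the 36, and the share of all genes at that level is not given. DESeq2 called 0 as well. Those 2 genes were Col23a1, at 35, 26, 25.8 and 28.4 CPM in arsenic-fed colons against 18.2, 24.1, 17.4, 15.5 and 24.4 CPM in control colons, and Col11a2, at 2.05, 1.56, 2.13 and 1.73 CPM against 2.59, 2.18, 2.77, 2.64 and 3.09 CPM. The groups of either gene did not overlap, but their log2 changes of 0.54 ± 0.16 (edgeR adjusted p = 0.154) and -0.50 ± 0.18 (edgeR adjusted p = 0.227) were not called. Groups did not overlap upward in 4.0% and downward in 3.83% of all genes tested there. Of the abundant chains, Col3a1 changed by -0.17 ± 0.30 and Col4a1 by 0.079 ± 0.17 on the log2 scale.

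The test of whether the arsenic effect differed between regions called 2 of 38 collagen genes, beside 7.62% of all genes. For Col7a1 the log2 effect was 1.29 higher in the cecum than in the ileum and 1.09 higher in the colon than in the ileum (edgeR interaction adjusted p = 0.0209). For Col20a1 these differences were 0.84 and 1.00 (edgeR interaction adjusted p = 0.0366). Outside the ileum, Col7a1 stood at 3.45, 3.21, 3.41, 3.15 and 3.96 CPM in arsenic-fed cecums against 2.82, 2.51, 3.45 and 3.36 CPM in control cecums, and at 3.77, 2.55, 4.62 and 2.38 CPM in arsenic-fed colons against 1.9, 3.29, 4.13, 4.16 and 3.41 CPM in control colons. The feeds overlapped for Col7a1 in both of these regions. The call of Col7a1 was lost without control ileum library 1 (0.0714) or 2 (0.0599), and that of Col20a1 in 12 of 27 fits without a library (edgeR adjusted p up to 0.101). The arsenic effect on Col11a2 was not shown to differ between regions (edgeR interaction adjusted p = 0.116), nor that on Col23a1 (0.227).

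**Figure D5:**
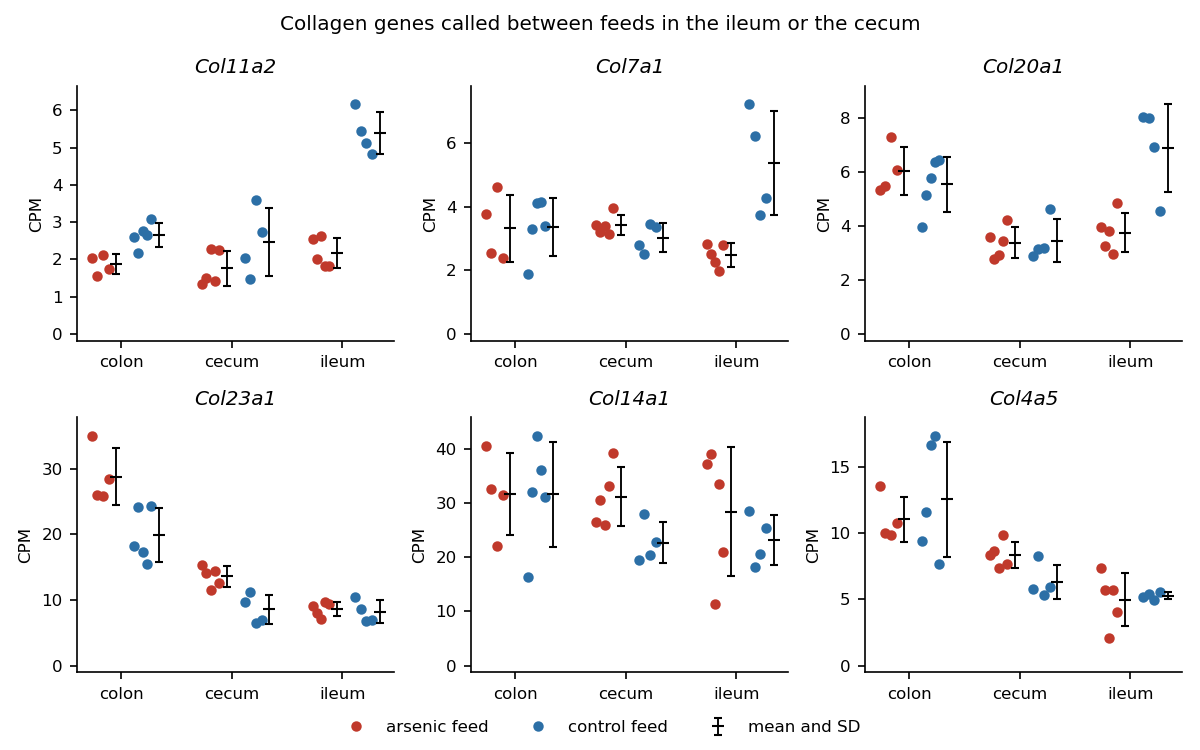
CPM of the 6 collagen genes called between feeds in the ileum or the cecum, in each library (points) by region, with arsenic-fed libraries in red at the left of control libraries in blue; bars are mean and SD. Col11a2 and Col7a1 separate the feeds in the ileum, and Col23a1 separates them in the cecum and the colon.

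Col8a1 and Col28a1 are 2 of the colon-rich chains, Col23a1 rose in the cecum, and Col7a1 and Col11a2 fell in the ileum. Promoters are shown for these 5 genes. Each is the 250 bases before the RefSeq start in GRCm38.p6, read 5′ to 3′ on the strand of the gene, at chr16:57754738-57754987 on the minus strand (Col8a1), chr6:8192618-8192867 on the minus strand (Col28a1), chr11:51289670-51289919 on the plus strand (Col23a1), chr9:108953336-108953585 on the plus strand (Col7a1) and chr17:34038888-34039137 on the plus strand (Col11a2). The Col11a2 window stops short of the gene start given for Col11a2 above, while the other windows end next to theirs. Capitals mark matches, on either strand, to 4 motifs: TATAAA is the core of a promoter box bound by TBP. CCAAT is bound by NF-Y. GGGCGG is the GC box bound by Sp1. TGANTCA is bound by AP-1. No matches overlapped.
Col8a1: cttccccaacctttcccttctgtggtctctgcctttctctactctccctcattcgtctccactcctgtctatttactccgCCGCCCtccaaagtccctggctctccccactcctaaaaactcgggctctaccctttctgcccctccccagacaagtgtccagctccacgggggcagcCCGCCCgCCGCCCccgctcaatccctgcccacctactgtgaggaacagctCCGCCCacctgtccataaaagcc
Col28a1: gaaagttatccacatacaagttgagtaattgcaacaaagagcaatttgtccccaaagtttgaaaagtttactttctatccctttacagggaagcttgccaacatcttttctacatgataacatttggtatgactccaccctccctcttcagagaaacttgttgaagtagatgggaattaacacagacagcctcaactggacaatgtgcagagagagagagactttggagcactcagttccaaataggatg
Col23a1: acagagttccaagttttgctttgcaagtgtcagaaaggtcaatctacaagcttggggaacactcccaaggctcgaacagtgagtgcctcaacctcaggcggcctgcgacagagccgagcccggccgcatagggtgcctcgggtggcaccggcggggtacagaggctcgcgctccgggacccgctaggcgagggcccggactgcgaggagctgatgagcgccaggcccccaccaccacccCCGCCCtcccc
Col7a1: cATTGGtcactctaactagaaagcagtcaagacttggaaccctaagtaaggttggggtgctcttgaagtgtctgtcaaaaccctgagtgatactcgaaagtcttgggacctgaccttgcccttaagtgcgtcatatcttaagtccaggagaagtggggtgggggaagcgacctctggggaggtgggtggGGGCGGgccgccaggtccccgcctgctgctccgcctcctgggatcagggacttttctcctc
Col11a2: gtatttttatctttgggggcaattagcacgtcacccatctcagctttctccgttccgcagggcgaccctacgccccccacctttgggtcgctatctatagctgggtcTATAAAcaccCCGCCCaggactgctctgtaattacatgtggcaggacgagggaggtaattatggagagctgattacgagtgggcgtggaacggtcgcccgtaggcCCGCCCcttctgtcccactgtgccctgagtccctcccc
The Col8a1 window held 4 GC boxes and the Col28a1 window none of the 4 motifs, so these 2 windows had no motif of this set in common. The other colon-rich chains were not compared in this way. Col11a2 was the only one of the 5 with a TATAAA match. Over 38 promoters of 35 collagen genes, 22 held GGGCGG, 13 CCAAT, 5 TATAAA and 1 TGANTCA, beside 32.7%, 33.8%, 12.4% and 6.75% of 32851 mouse promoters of the same length. A match is a description of letters and not of binding.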

How the data were processed

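The deposited table holds whole-number read counts per Ensembl gene for 27 libraries. Per the labels' protocols, the authors made poly-A libraries with a NEBNext Ultra kit and sequenced 150 bp pairs. The submitters' processing notes name HISAT2 2.1.0, HTSeq 0.6.0, DESeq2 1.6.3 and SAMtools, and the genome build, annotation and strand setting are not given in the sources used here. A table of Ensembl identifiers and symbols named 52403 of the 52550 rows, coordinates and transcript lengths came from GENCODE M21 on GRCm38, and promoters from RefSeq on GRCm38.p6.

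Counts were tested with edgeR 4.0.16 in R 4.3.3 (quasi-likelihood with robust dispersion, TMM, genes kept by filterByExpr at a minimum count of 10 and total of 15). Each feed comparison was fitted on its own region's libraries, region pairs within the 13 control or 14 arsenic-fed libraries, and the interaction on all 27. Alternatives were DESeq2 1.42.0, other scalings and filters, 1 fit of all libraries, a replicate block and leaving out each library. The method was tested on simulated data.

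The collagen genes were set by their names alone. Earlier results of these data were known when they and the companion and marker lists were chosen. Genes given library by library were the called collagen genes of smallest p and the abundant chains. Companion genes were the called genes of smallest p, up to 3 per list and direction, of which 1 is not reported here. Intervals cover counting error only.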

Additional observations from a re-analysis of the deposited data

Results flagged for a closer look

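Of 113 sets of libraries examined for a single library far from its group, 8 stood out, and chance alone flags about 1 in 20. Control colon library 1 was the lowest of its 5 for Col16a1 (24.8 CPM, others 44.8 to 51.3 CPM), Col6a3 (54.4 CPM, others 84.1 to 90.7 CPM) and Col8a1 (7.09 CPM, others 17.1 to 20.4 CPM). Control cecum library 2 was the highest of its 4 for Col1a2 (105.7 CPM, others 82.1 to 83.4 CPM) and Col4a2 (46.4 CPM, others 36.8 to 38.1 CPM). Arsenic-fed colon library 11 was the highest of its 4 for Col1a1 (180.5 CPM, others 89.7 to 104.8 CPM). Arsenic-fed cecum library 12 was the highest of its 5 for Col8a2 (6.35 CPM, others 3.48 to 4.10 CPM). Arsenic-fed ileum library 14 was the only one of its 5 with a count of Col19a1 (0.0537 CPM).

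The effect of arsenic feed differed between regions by edgeR's interaction test for Col7a1 (adjusted p = 0.0209) and Col20a1 (adjusted p = 0.0366).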

How the results depend on the processing

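The collagen calls between feeds rest on few libraries. Single libraries left out gave 1 to 3 calls in the ileum, 1 to 7 in the cecum (1 without control library 1, 5 without control library 2, 7 without arsenic library 15), 0 in the colon and 0 to 3 in the interaction. The share of all genes called in those fits was 0.733 to 9.76% in the ileum and 19.4 to 27.9% in the cecum. It was 0.0358 to 2.14% in the colon and 3.05 to 10.6% in the interaction. Without arsenic libraries 14 and 15, an alternative chosen after seeing the data, the ileum had 1 call. With all 27 libraries in 1 fit the cecum had 1. The interaction had 1 call with no filter and 1 with a replicate block. For these alternative fits the share of all genes called is not given. The region counts ranged on arsenic feed from 25 to 28 (colon against cecum), 22 to 23 (colon against ileum) and 10 to 20 (cecum against ileum), and on control feed from 26 to 29, 23 to 27 and 14 to 22. Of all genes, 30.7 to 48.4%, 53.0 to 60.4% and 48.1 to 53.4% were called in those fits on arsenic feed. On control feed the shares were 39.8 to 53.3%, 47.0 to 57.1% and 49.3 to 59.6%.

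Signs turned only for uncalled genes. Col1a1 in the ileum was 0.0021 with all 27 libraries in 1 fit. Col6a1 in the colon was -0.0035 with RLE and with DESeq2, -0.0093 with no filter, -0.0029 with a 1 CPM filter and -0.00035 in 1 fit. Leaving out single libraries gave, in the ileum, -0.15 to 0.14 for Col1a1, -0.21 to 0.049 for Col1a2, -0.053 to 0.16 for Col4a1, -0.15 to 0.071 for Col4a2 and -0.20 to 0.046 for Col6a1, and in the colon -0.36 to 0.029 for Col1a1, -0.11 to 0.15 for Col4a1, -0.10 to 0.19 for Col4a2 and -0.21 to 0.11 for Col6a1.

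Whether equal replicate numbers pair the libraries is not given by the labels and was mixed in the data. Of 24 pairs with equal numbers, 14 correlated above 0.1 (range -0.10 to 0.31) and in 14 the equal-numbered library was the best match of the first region's library. All 4 pairs of colon and cecum on control feed were above 0.1, and in the other comparisons at least 1 pair was not. With the replicate block the region counts were 27, 24 and 15 on arsenic feed and 27, 22 and 17 on control feed. For the fits with this block the share of all genes called is not given.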
